A study of Mus musculus with 30 samples.

Results

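The cytosolic glutathione transferases of the alpha, pi, and theta classes and 1 microsomal enzyme were followed in mouse liver as a set of 10 genes, namely *Gsta1*, *Gsta2*, *Gsta3*, *Gsta4*, *Gstp1*, *Gstp2*, *Gstt1*, *Gstt2*, *Gstt3*, and *Mgst1*. They were chosen by symbol and class, with earlier results of these data known. All 10 were found among the 55335 genes of the count table. RNA-seq of polyadenylated RNA was done on the livers of 30 male mice, 5 in each of 6 groups, 7 to 10 weeks old, all of the albino strain B6(Cg)-Tyr c-2J/J, which is a C57BL/6J line. Wild-type mice, mice homozygous for the C151S knock-in allele of *Keap1*, and Nrf2-knockout mice each received vehicle (DMSO and Cremophor-EL in PBS) or 1 oral dose of the triterpenoid CDDO-Me at 30 µmol/kg, and livers were taken 24 hours later. The comparisons ask whether the reactive cysteine of KEAP1 and the transcription factor NRF2 are needed for the response of these genes to the drug. The mutant mice were bred from homozygous parents and the wild-type mice were bought from a supplier, so that a difference between genotypes also holds any difference between colonies and cannot be told apart from it. Whole liver was used, and fewer cells of a type and less RNA per cell cannot be told apart.

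Glutathione transferases join the thiol of glutathione to electrophilic compounds, which are then exported from the cell and processed to mercapturates. The alpha class is abundant in hepatocytes and handles products of lipid peroxidation, the pi class conjugates a wide range of electrophiles, the theta class acts on small halogenated compounds, and the microsomal enzyme sits in the membranes of the endoplasmic reticulum and the outer mitochondrial membrane. KEAP1 holds NRF2 at low levels until its cysteines are modified, after which NRF2 binds with small MAF proteins to antioxidant response elements, and alpha class transferase genes of rodents were among the first in which such elements were described.

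The libraries held 23667068 to 42073169 counts on genes, with a median of 33229925. Reads with more than 1 position, which were not counted, made up 12.3% to 16.9% of the reads in wild-type, 11.3% to 15.3% in C151S, and 10.46% to 13.3% in Nrf2-knockout libraries. *Nfe2l2*, which encodes NRF2, had 47.9 to 71.0 CPM in wild-type and 22.4 to 39.8 CPM in Nrf2-knockout libraries; gene totals do not show whether the deleted part was read, and the base change of the C151S allele cannot be seen in counts. No single library was outermost in its group for more than 59.4% of 15010 genes (vehicle-treated wild-type mouse 2), where an equal share is 2 of 5. Hepatocyte markers were abundant in every library, with a summed level of 72710 to 151400 CPM over 6 genes. Among the libraries of mutant mice, 11 had low *Arntl*, a clock gene, and 19 libraries including all wild-type ones had high *Arntl*. Values within the set with high *Arntl* are given beside the genotype differences whose call or direction they change.

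The members lie at 5 places in the GRCm38 genome. *Gsta4* (chr9:78182774-78209349), *Gsta1* (chr9:78230656-78242684), and *Gsta2* (chr9:78331018-78355788) form a cluster, and *Gsta3* lies alone (chr1:21240589-21265661). *Gstp1* (chr19:4035407-4037985) and *Gstp2* (chr19:4040285-4046023) are neighbors, as are *Gstt3* (chr10:75774115-75781414), *Gstt1* (chr10:75783813-75798584), and *Gstt2* (chr10:75831114-75837424). *Mgst1* stands apart from the rest (chr6:138140316-138156755).

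Near-identical copies limit what can be counted for some of them. The coding sequences of *Gsta1* and *Gsta2* were 97.6% identical, those of *Gstp1* and *Gstp2* 98.1%, and that of *Gsta1* was 99.7% identical to *Gm3776*, another gene model on chromosome 9. Of all stretches of 50 bases in the transcripts of *Gsta1*, 90.5% also occurred in another gene, against 49.8% for *Gsta2*, 33.7% for *Gstp1*, 54.3% for *Gstp2*, and 12.5% for *Gstt3*. The share was at most 0.4% for *Gsta3*, *Gsta4*, *Gstt1*, *Gstt2*, and *Mgst1*. Reads from shared stretches are not counted where both copies match. The reads were sequenced as pairs of 50 bases, and a pair can be placed by either end. The share of single stretches therefore does not give the share of reads lost. The levels of *Gsta1*, *Gsta2*, *Gstp1*, and *Gstp2* are too low by an unknown amount, and reads may be split between copies. That of *Gstt3*, with 12.5% of its stretches shared, may be too low as well.

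Promoter sequences were read for 8 of the 10 genes from the RefSeq table for GRCm38.p6. The 150 bases before the start site are shown for the alpha and pi genes that responded to the drug. They are also shown for *Mgst1*, which did not pass the same test. Motifs were sought only in windows of 300 bases around a start, and sites further away were not looked for. For *Gsta2* and *Gstp2* the start in that table lies inside the gene span given above. The outer end of the span was not searched. Capitals mark the core of the antioxidant response element, TGACNNNGC, or the related TGAGTCA, on either strand (a stretch can match both, and no match in these genes did).
Gsta1, chr9:78230519-78230668, plus strand: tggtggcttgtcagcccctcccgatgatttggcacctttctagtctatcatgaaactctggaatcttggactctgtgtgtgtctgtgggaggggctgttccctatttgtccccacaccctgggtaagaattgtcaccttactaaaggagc
Gsta2, chr9:78347146-78347295, minus strand: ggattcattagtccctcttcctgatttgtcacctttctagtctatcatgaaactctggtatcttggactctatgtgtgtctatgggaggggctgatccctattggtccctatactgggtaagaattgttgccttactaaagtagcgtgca
Gsta3, chr1:21240435-21240584, plus strand: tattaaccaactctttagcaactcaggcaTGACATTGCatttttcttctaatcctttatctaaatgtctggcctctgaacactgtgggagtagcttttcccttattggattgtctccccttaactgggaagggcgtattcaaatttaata
Gstp1, chr19:4037913-4038062, minus strand: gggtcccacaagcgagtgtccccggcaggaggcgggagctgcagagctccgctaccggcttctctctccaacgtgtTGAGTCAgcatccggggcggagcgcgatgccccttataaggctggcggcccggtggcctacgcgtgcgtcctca
Gstp2, chr19:4042222-4042371, minus strand: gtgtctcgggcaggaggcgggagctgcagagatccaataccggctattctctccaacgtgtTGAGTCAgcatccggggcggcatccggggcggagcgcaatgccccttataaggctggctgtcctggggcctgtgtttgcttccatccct
Mgst1, chr6:138140377-138140526, plus strand: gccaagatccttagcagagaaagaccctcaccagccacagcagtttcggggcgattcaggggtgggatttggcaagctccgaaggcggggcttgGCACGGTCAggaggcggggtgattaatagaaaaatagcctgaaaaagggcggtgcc
The core TGACNNNGC was found in *Gsta3*, beginning 121 bases before the start, and on the opposite strand in *Mgst1*, 56 bases before its first start. The window of the other *Mgst1* start held no match. In the windows of 300 bases of the table (250 before and 50 after a start), 12.39% of 32851 promoters hold this core. TGAGTCA lay 74 bases before the start of *Gstp1* and 89 bases before that of *Gstp2*, and is found in 5.2% of promoters. Neither motif occurred in the windows of *Gsta1*, *Gsta2*, *Gstt1*, and *Gstt3*, which says only that these letters are not in them. The 150 bases were 82.7% identical between *Gsta1* and *Gsta2* and 77.3% between *Gstp1* and *Gstp2*.

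In wild-type mice CDDO-Me raised 3 of 4 alpha class genes and both pi class genes, and none of the 10 genes was called lower. Genes were called where edgeR's quasi-likelihood test gave an adjusted p under 0.05 over all genes and the log2 fold change was 0.5 or more in size. By this rule 5 of 10 members were called, all higher, beside 2.75% of the 13697 genes tested in either direction and 1.66% called higher. The median log2 fold change of the members was 0.64 and that of all genes -0.01. The 5 vehicle-treated and 5 CDDO-Me-treated mice did not overlap for 6 members, beside 5.24% of all genes. In 1 fit of all 30 libraries, which share 1 estimate of the spread, *Gsta1* and *Gstp2* were called and *Gsta2* (adjusted p = 0.0521), *Gsta3* (0.443), and *Gstp1* (0.23) were not, at almost the same fold changes.

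*Gsta1*, an alpha class enzyme that reduces lipid hydroperoxides, had the largest fold change. Its normalized levels in the 5 vehicle-treated wild-type mice were 1.89, 3.74, 1.68, 1.63, and 1.66 CPM, and in the 5 CDDO-Me-treated mice 9.16, 8.27, 24.5, 34.5, and 66.4 CPM. Every treated mouse lay above every control, and the treated mice were spread widely, with mouse 5 at the top. The log2 fold change was 3.75 ± 0.56 (SE; adjusted p = 0.0024), and without mouse 5 it was 3.16.

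*Gsta2*, another member of the same cluster, had 34.0, 47.2, 22.2, 19.8, and 25.1 CPM with vehicle and 88.1, 70.0, 105, 123, and 228 CPM with CDDO-Me. The groups were again separate and treated mouse 5 was again the highest. Its log2 fold change was 2.04 ± 0.32 (adjusted p = 0.00324). With the counts of *Gsta1* and *Gsta2* summed, the log2 fold change was 2.24 (adjusted p = 0.00303). The sum joins reads placed on either gene, most of them on *Gsta2*. It does not restore the reads that were left out, and *Gm3776* is not part of it.

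*Gsta3*, the alpha class enzyme that conjugates aflatoxin epoxide in mouse liver, had by far the most counts of the class. With vehicle it was at 1989, 1789, 1755, 1896, and 1887 CPM and with CDDO-Me at 2736, 2570, 2795, 2608, and 2836 CPM. Both groups were tight and did not overlap, and the log2 fold change of 0.53 ± 0.07 (adjusted p = 0.00102) was just past the size threshold.

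*Gsta4*, which conjugates 4-hydroxynonenal, was not called. It had 71.7, 93.3, 58.7, 51.4, and 61.7 CPM with vehicle and 79.4, 74.6, 109, 134, and 190 CPM with CDDO-Me, so that 3 treated mice lay above all controls and 2 within their range. The log2 fold change was 0.79 ± 0.24 (adjusted p = 0.0934). The gene passed without vehicle-treated mouse 2 (adjusted p = 0.0417), with no filter on low counts (adjusted p = 0.025), and with 1 surrogate variable (adjusted p = 0.0321).

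*Gstp1* encodes the main pi class enzyme. Its levels were 1157, 1046, 1032, 1063, and 1149 CPM with vehicle and 1887, 1510, 1830, 1787, and 2133 CPM with CDDO-Me, without overlap. The log2 fold change was 0.74 ± 0.09 (adjusted p = 0.000619). *Gstp2*, the neighboring copy, had 2.37, 3.19, 1.94, 1.76, and 1.55 CPM with vehicle and 3.99, 3.24, 6.74, 6.22, and 20.2 CPM with CDDO-Me. The second treated mouse was barely above the highest control and the fifth stood far above the others. Its log2 fold change was 1.90 ± 0.46 (adjusted p = 0.0345) and was 1.22 without treated mouse 5, where it was still called. The call was lost when any of vehicle-treated mice 1, 3, 4, and 5 or treated mouse 3 was left out (adjusted p, 0.0531 to 0.0959).

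**Figure D1:**
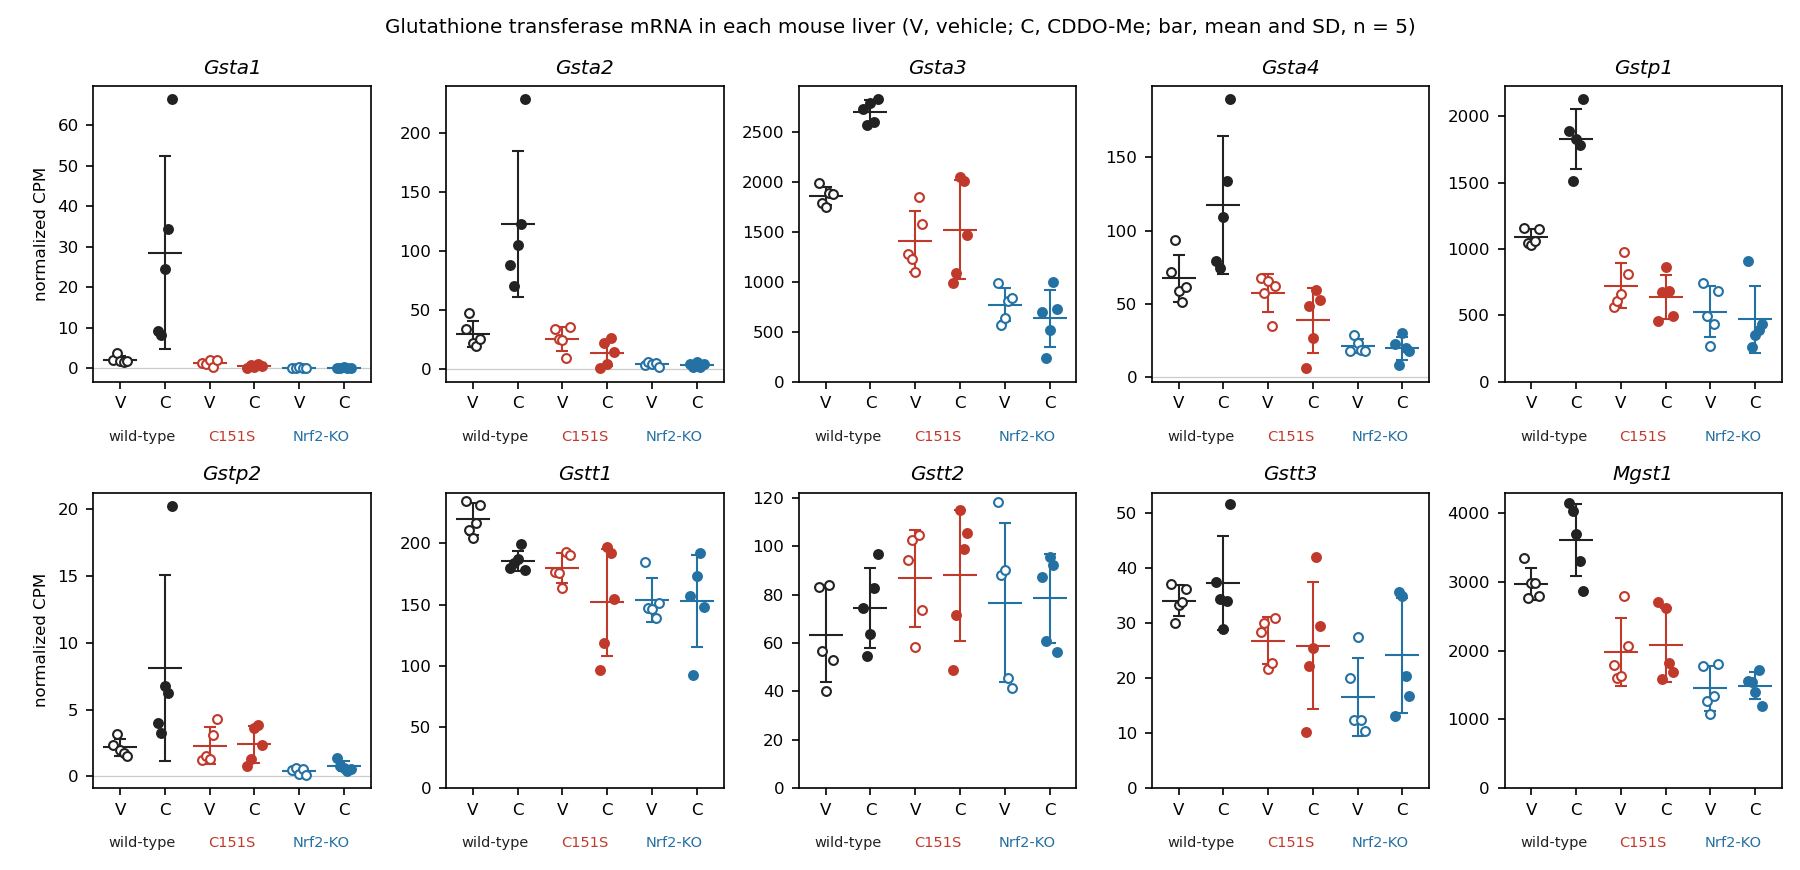
Normalized CPM (vertical axes, linear) of the 10 genes in each of the 30 livers, by genotype and treatment (open points, vehicle; filled points, CDDO-Me; bars, mean and SD of 5 mice). The CDDO-Me-treated wild-type mice lie above their controls for *Gsta1*, *Gsta2*, *Gsta3*, *Gstp1*, and *Gstp2*, and below them for *Gstt1*.

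The theta class did not share in the increase. *Gstt1* had 235, 211, 204, 217, and 232 CPM with vehicle and 180, 184, 187, 199, and 178 CPM with CDDO-Me, so that all 5 treated mice were below all controls. The log2 fold change of -0.25 ± 0.06 (adjusted p = 0.041) passed the false discovery rate but not the size threshold. *Gstt2* ranged from 40.1 to 84.1 CPM with vehicle and from 54.6 to 96.7 CPM with CDDO-Me (log2 fold change, 0.23 ± 0.20), and *Gstt3* from 29.9 to 37.0 CPM and from 28.9 to 51.6 CPM (0.12 ± 0.13). The ranges overlapped for both, and neither passed the test (adjusted p = 0.644 and 0.708).

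*Mgst1* was the member with the most counts. It was at 3344, 2758, 2982, 2985, and 2793 CPM with vehicle and at 4144, 4024, 3696, 3303, and 2866 CPM with CDDO-Me. Here the order of the treated mice was turned around, with mouse 5, the highest for 8 members, the lowest of its group. The log2 fold change was 0.27 ± 0.11 (adjusted p = 0.223).

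Together the 10 genes had 6343 ± 362 CPM in vehicle-treated and 8719 ± 350 CPM in CDDO-Me-treated wild-type mice (SD, n = 5). *Mgst1*, *Gsta3*, and *Gstp1* made up most of the sum, with 46.8%, 29.4%, and 17.2% in vehicle-treated mice. None of the 6 lists of cell type markers held a gene called in this comparison.

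In C151S mice none of the 10 members was called after CDDO-Me, beside 0.092% of 14128 genes. In Nrf2-knockout mice none of the 9 members tested was called, beside 0% of 14474 genes, and *Gsta1* had too few counts to be tested. One member had an unadjusted p under 0.05 in C151S mice and none did in Nrf2-knockout mice, where 1942 of 14128 and 1136 of 14474 genes did. DESeq2 called none of the members in either genotype. Treated and control mice overlapped for every member in both genotypes, beside 2.15% of all genes without overlap in C151S and 1.7% in Nrf2-knockout mice.

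In C151S mice the alpha class spread widely after the drug. *Gsta1* had 1.33, 1.02, 1.97, 0.325, and 2.05 CPM with vehicle and 0.0339, 0.717, 0.220, 1.05, and 0.566 CPM with CDDO-Me, with 2 treated mice below all controls. *Gsta2* had 33.7, 25.5, 24.6, 9.53, and 35.4 CPM with vehicle and 0.780, 22.4, 4.30, 26.2, and 14.2 CPM with CDDO-Me. For *Gsta4* the values were 67.8, 57.1, 65.3, 35.1, and 61.9 CPM and 6.03, 48.2, 26.7, 59.1, and 52.9 CPM. CDDO-Me-treated C151S mouse 1 was the lowest of its group for 9 of the 10 members and the highest for *Mgst1*. The log2 fold changes were -1.36 ± 0.62 for *Gsta1* (adjusted p = 0.363), -0.92 ± 0.67 for *Gsta2* (adjusted p = 0.528), and -0.58 ± 0.45 for *Gsta4* (adjusted p = 0.556). Without mouse 1 they were -1.08, -0.63, and -0.31, none of them called.

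The other members of the alpha and pi classes differed little between treated and control C151S mice on average. *Gsta3* had 1284, 1227, 1095, 1857, and 1577 CPM with vehicle and 993, 1092, 2055, 2014, and 1467 CPM with CDDO-Me, so that the treated mice fell on both sides of the controls (log2 fold change, 0.11 ± 0.23, and -0.21 in the high-*Arntl* libraries alone, neither called). *Gstp1* had 559, 607, 658, 977, and 813 CPM and 457, 678, 867, 680, and 496 CPM, with the ranges crossing widely (-0.19 ± 0.20). *Gstp2* ranged from 1.26 to 4.30 CPM with vehicle and from 0.780 to 3.84 CPM with CDDO-Me (0.05 ± 0.47). *Mgst1* had 1791, 1598, 1636, 2793, and 2059 CPM with vehicle and 2703, 1585, 2625, 1822, and 1688 CPM with CDDO-Me, again with overlap (0.07 ± 0.20). The 3 theta class genes had log2 fold changes from -0.25 to 0.01.

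In Nrf2-knockout mice *Gsta1* had at most 10 counts in any vehicle-treated library and at most 12 in any CDDO-Me-treated one, and 4 and 3 of the 5 libraries were at the floor of 3 counts or fewer. *Gsta2* had 3.24, 5.66, 4.50, 5.45, and 1.72 CPM with vehicle and 4.15, 1.69, 6.16, 1.43, and 4.31 CPM with CDDO-Me. *Gsta3* had 991, 571, 643, 814, and 835 CPM and 694, 234, 520, 999, and 725 CPM, the lowest in treated mouse 2. *Gstp1* had 746, 498, 268, 436, and 687 CPM and 908, 258, 354, 388, and 436 CPM. For all 3 the treated mice fell on both sides of the controls. *Mgst1*, in which the ranges overlapped too, had 1780, 1260, 1078, 1335, and 1799 CPM with vehicle and 1558, 1545, 1404, 1724, and 1199 CPM. The log2 fold changes of the 9 members ranged from -0.29 (*Gsta3*) to 0.88 (*Gstp2*, adjusted p = 0.661), and *Gstp2* counts there were between 4 and 52 per library.

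**Figure D2:**
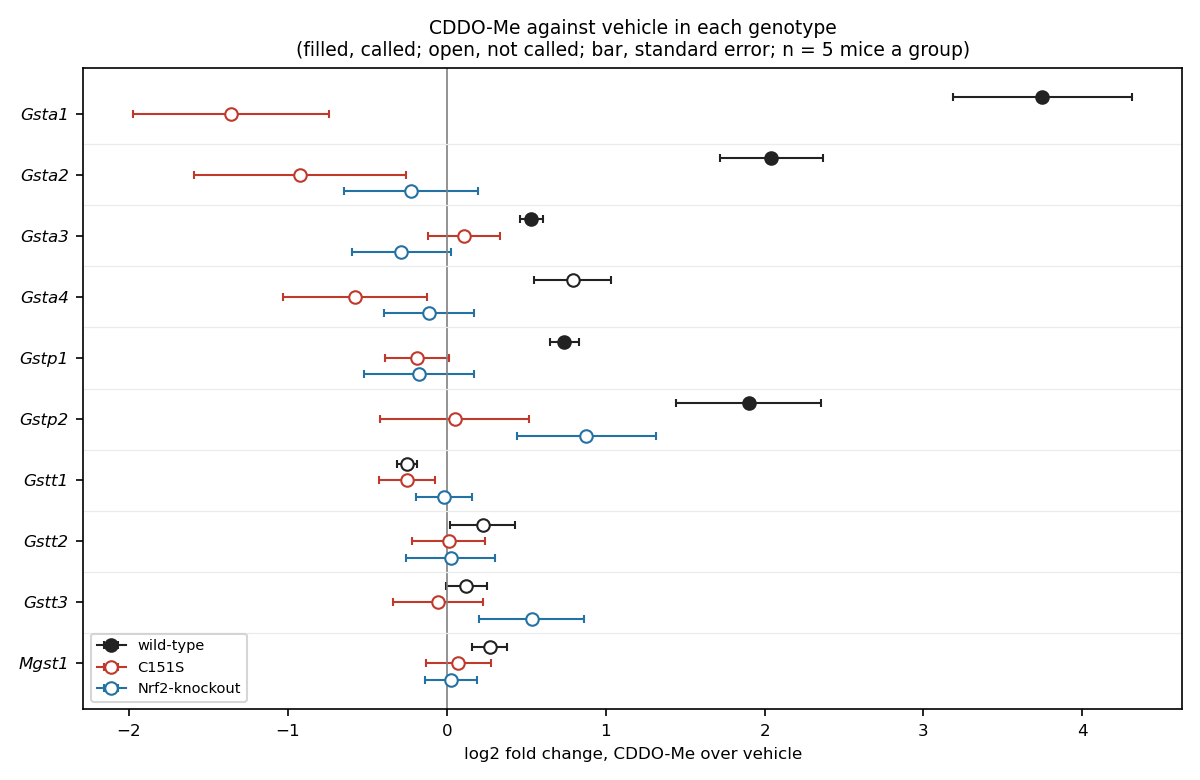
Log2 fold change of CDDO-Me over vehicle (horizontal axis) for each of the 10 genes in each genotype, with its standard error (filled, called; open, not called; 5 mice a group). The 5 filled points are all of wild-type mice, from 0.53 for *Gsta3* to 3.75 for *Gsta1*, and *Gsta1* has no point for Nrf2-knockout mice because it was not tested there.

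Whether the responses differ was tested as a contrast in 1 fit of all 30 libraries, with no threshold on size. The response of *Gsta1* differed between wild-type and C151S mice, by 5.10 ± 0.80 on the log2 scale (adjusted p = 0.000581). It was the 1 member called of 10, beside 0.48% of 15010 genes in either direction and 0.386% with the larger response in wild-type mice, and was called in each of 20 fits without 1 mouse (adjusted p, 0.000196 to 0.00251). With the counts of *Gsta1* and *Gsta2* summed, most of them from *Gsta2*, the difference of 3.19 did not pass (adjusted p = 0.0534). *Gsta2* alone gave a difference of 2.97 ± 0.75 (adjusted p = 0.0809), which passed with DESeq2 (adjusted p = 0.0358) and without vehicle-treated C151S mouse 4 or CDDO-Me-treated C151S mouse 2 or 4 (adjusted p, 0.0418 to 0.0495). The differences for *Gsta4*, *Gstp1*, and *Gstp2* were 1.37 ± 0.52, 0.93 ± 0.36, and 1.85 ± 0.66, each with an unadjusted p under 0.05 and none called. That of *Gsta3*, which was called in wild-type mice, was 0.43 ± 0.34 (unadjusted p = 0.225; adjusted p = 0.778). Those of the theta class and *Mgst1* were between 0.00 and 0.21.

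Between wild-type and Nrf2-knockout mice no difference of response was called among the 10 members, beside 0.266% of all genes. Their differences were 3.35 ± 1.32 for *Gsta1*, 2.26 ± 0.77 for *Gsta2*, 0.82 ± 0.34 for *Gsta3*, and 0.92 ± 0.36 for *Gstp1*, and these 4 had an unadjusted p under 0.05 (adjusted p, 0.427 to 0.678). DESeq2 called 0 of them. The difference for *Gsta1* rests on 16 counts in all in vehicle-treated and 21 in CDDO-Me-treated Nrf2-knockout libraries, most of which were at the floor. Between C151S and Nrf2-knockout mice none was called, beside 0.0133% of genes, none had an unadjusted p under 0.05, and DESeq2 called none. The calls in wild-type mice alone do not show a difference from Nrf2-knockout mice for these genes.

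Under vehicle the Nrf2-knockout mice had lower levels of nearly all members. Of the 10 genes, 8 were called lower and none higher, beside 10.4% of 14030 genes called in either direction and 4.13% called lower. All 4 alpha class genes, both pi class genes, *Gstt3*, and *Mgst1* were among them, and 9 members had ranges that did not overlap, beside 11.9% of all genes. The median log2 fold change of the members was -1.15 and that of all genes 0.01.

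*Gsta1* averaged 2.12 CPM (SD, 0.911; n = 5) in vehicle-treated wild-type mice. The 5 Nrf2-knockout libraries held 16 counts of it in all, a mean of 0.0770 CPM (SD, 0.0824), and its log2 fold change was -4.57 ± 0.51 (adjusted p = 0.000394). *Gsta2* fell by 2.82 ± 0.33 on the log2 scale (adjusted p = 0.000451), *Gsta4* by 1.65 ± 0.18 (adjusted p = 0.000394), and *Gsta3* by 1.26 ± 0.14 (adjusted p = 0.000336). In each case the highest knockout mouse was below the lowest wild-type mouse, as shown by *Gsta4*, with 17.7, 28.7, 22.96, 18.6, and 17.6 CPM against at least 51.4 CPM in wild-type mice.

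*Gstp2* fell by 2.37 ± 0.37 (adjusted p = 0.00255) and *Gstp1* by 1.03 ± 0.22 (adjusted p = 0.00976). The call of *Gstp1* was lost with the *Arntl* set as a covariate (log2 fold change, -0.93; adjusted p = 0.0838). *Mgst1* fell by 1.02 ± 0.14 (adjusted p = 0.00127). *Gstt3* fell by 1.02 ± 0.23 (adjusted p = 0.014), with 19.9, 12.4, 27.4, 12.3, and 10.4 CPM in the knockout mice, the highest of them still under the 29.9 CPM of the lowest wild-type mouse.

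*Gstt1* and *Gstt2* were the members not called. *Gstt1* was lower in all 5 knockout mice, at 185, 147, 147, 139, and 151.1 CPM, and its log2 fold change of -0.498 ± 0.085 (adjusted p = 0.00394) missed the size threshold. It passed that threshold in 6 of the alternative settings, of which 1 drops the threshold itself, and without any of 4 mice. *Gstt2* had 118, 88.2, 90.4, 45.4, and 41.3 CPM and a log2 fold change of 0.29 ± 0.29, with 3 knockout mice above all wild-type ones. These 3 are the knockout mice with low *Arntl*, and in the high-*Arntl* libraries alone the direction turned (log2 fold change, -0.51; adjusted p = 0.254).

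Some markers of other cell types were also called in this comparison, in which 10.4% of 14030 genes were called in either direction. Of the stellate cell markers 3 of 6 were called higher in Nrf2-knockout mice (*Col1a1*, *Pdgfrb*, and *Des*), and of the endothelial markers 3 of 5 (*Pecam1*, *Stab2*, and *Lyve1*). The summed stellate markers ranged from 150.8 to 210 CPM in wild-type and from 143 to 399 CPM in Nrf2-knockout mice, and the endothelial markers from 144 to 171 and from 182 to 285 CPM. No hepatocyte, cholangiocyte, Kupffer cell, or lymphocyte marker was called, and no gene of any list was at 0 in a whole group. The part of these cells in the result was not tested.

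In vehicle-treated C151S mice a pi class gene and the microsomal gene were lower than in wild-type mice. *Gstp1* and *Mgst1* were called lower, 2 of 10, beside 4.84% of 13946 genes called in either direction and 2.25% called lower. Ranges did not overlap for 2 members (*Gstp1* and *Gstt1*), beside 8.51% of all genes. *Gstp1* did not overlap with the wild-type values listed above and had a log2 fold change of -0.58 ± 0.13 (adjusted p = 0.0223). *Mgst1* had 4 of 5 C151S mice below all wild-type mice and a log2 fold change of -0.58 ± 0.14 (adjusted p = 0.0282).

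Both calls were lost in some fits without 1 mouse, while the fold changes stayed near those in all mice. Over these fits the log2 fold change was -0.70 to -0.50 for *Gstp1* and -0.73 to -0.51 for *Mgst1*. *Gstp1* was lost without wild-type mouse 1 or 5 or C151S mouse 2 (adjusted p, 0.0524 to 0.0667), and *Mgst1* without wild-type mouse 1, 3, 4, or 5 or C151S mouse 1, 2, or 3 (adjusted p, 0.0563 to 0.077). C151S mouse 4, 1 of the 2 vehicle-treated C151S mice with low *Arntl*, was the highest of its group for *Gsta3*, *Gstp1*, *Gstt1*, *Gstt2*, and *Mgst1*. In the C151S mice with high *Arntl* alone, *Gstp1* was at 559 to 658 CPM and *Mgst1* at 1598 to 1791 CPM, against 813 to 977 CPM and 2059 to 2793 CPM in the 2 mice with low *Arntl*. With the high-*Arntl* libraries alone *Gsta3* was called as well (log2 fold change, -0.61; adjusted p = 0.00147), against -0.39 ± 0.13 (adjusted p = 0.0745) in all 10 mice.

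*Gstt1* was below every wild-type mouse in all 5 C151S mice, at 177, 176, 163, 193, and 190 CPM, and its log2 fold change of -0.27 ± 0.07 (adjusted p = 0.0313) missed the size threshold. *Gsta1*, *Gsta2*, and *Gsta4* had log2 fold changes of -0.64 ± 0.41, -0.19 ± 0.33, and -0.21 ± 0.20, with overlapping ranges and no call. *Gstp2*, the copy of *Gstp1*, had a log2 fold change of 0.10 ± 0.36, with 1.26 to 1.56 CPM in the 3 mice with high *Arntl* and 3.12 and 4.30 CPM in the 2 with low *Arntl*. In the high-*Arntl* libraries alone its log2 fold change was -0.63 (adjusted p = 0.087). The summed counts of the pair, most of them from *Gstp1*, gave -0.58 (adjusted p = 0.0227). One cholangiocyte marker, *Spp1*, was called lower in this comparison, with the 5 markers of that list at 17.9 to 27.2 CPM in C151S and 25.2 to 54.7 CPM in wild-type mice, and its part was not tested.

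Between the vehicle-treated mutants, 3 alpha class genes were higher in C151S than in Nrf2-knockout mice, beside 0.349% of 14323 genes called in either direction and 0.307% called higher. The log2 fold changes were 3.95 ± 0.64 for *Gsta1* (adjusted p = 0.0247), 2.64 ± 0.38 for *Gsta2* (adjusted p = 0.0102), and 1.45 ± 0.20 for *Gsta4* (adjusted p = 0.00812). For these 3, *Gsta3*, and *Gstp2* all C151S mice were above all knockout mice, beside 2.72% of all genes without overlap. *Gsta3* (0.87 ± 0.17, adjusted p = 0.0686) and *Gstp2* (2.47 ± 0.47, adjusted p = 0.0564) did not pass. *Gsta1* was lost without any of 7 of the 10 mice (C151S mice 1, 2, 3, and 5 and Nrf2-knockout mice 1, 2, and 4; adjusted p, 0.052 to 0.106), while *Gsta4* was lost in 1 fit of all 30 libraries (adjusted p = 0.0682). In the high-*Arntl* libraries alone, 3 C151S against 2 Nrf2-knockout mice, *Gsta4* was still called, and *Gsta1* and *Gsta2* were not, at log2 fold changes of 5.28 and 2.95.

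**Figure D3:**
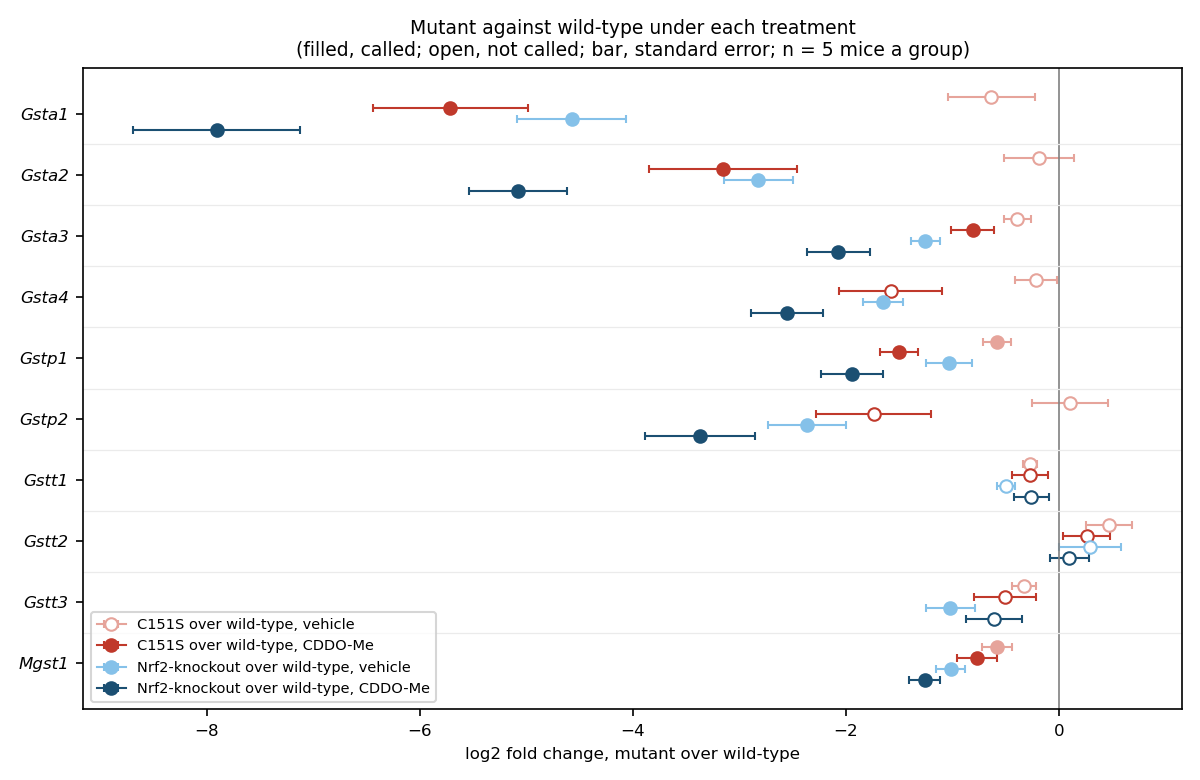
Log2 fold change of each mutant over wild-type (horizontal axis) under vehicle and under CDDO-Me for the 10 genes, with its standard error (filled, called; open, not called; 5 mice a group). For the alpha and pi classes the Nrf2-knockout points under CDDO-Me lie furthest to the left, down to -7.91 for *Gsta1*, while all 4 points of *Gstt2*, none called, lie above 0, of which 3 turn to below 0 in the high-*Arntl* libraries alone.

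After CDDO-Me, 7 of 10 members were called lower in Nrf2-knockout than in wild-type mice, beside 9.44% of 13935 genes called in either direction and 4.85% called lower. They were the 4 alpha class genes, the 2 pi class genes, and *Mgst1*, and their ranges did not overlap, beside 10.5% of all genes. The log2 fold changes ran from -1.26 ± 0.14 for *Mgst1* (adjusted p = 0.000182) to -7.91 ± 0.78 for *Gsta1* (adjusted p = 5.64e-05), the latter resting on 21 counts in the 5 knockout libraries. *Gsta2* had a log2 fold change of -5.08 ± 0.46 (adjusted p = 2.65e-05), with means from 123 ± 62.1 CPM to 3.55 ± 1.98 CPM. All 7 calls held without any 1 mouse. No theta class gene was called (log2 fold changes, -0.61 to 0.10, the latter *Gstt2*, at -0.32 in the high-*Arntl* libraries alone). In the marker lists *Pecam1* was called higher and *Marco*, of the Kupffer cell list, lower.

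C151S mice had 5 of 10 members called lower than wild-type mice after CDDO-Me, beside 5% of 13844 genes called in either direction and 2.8% called lower. Ranges did not overlap for 6 members, beside 7.18% of all genes. They were *Gsta1* (log2 fold change, -5.71 ± 0.73; adjusted p = 0.00106), *Gstp1* (-1.51 ± 0.18; 0.000623), *Gsta2* (-3.15 ± 0.69; 0.0222), *Mgst1* (-0.77 ± 0.19; 0.0321), and *Gsta3* (-0.81 ± 0.20; 0.0347). *Gsta4*, at 6.03 to 59.1 CPM in C151S and 74.6 to 190 CPM in wild-type mice, did not overlap but was not called (-1.58 ± 0.48, adjusted p = 0.0691). Leaving out C151S mouse 1, the lowest, gave a smaller fold change of -1.31 and a call (adjusted p = 0.0191).

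These calls varied with single mice and settings. *Gsta3* was lost without any of wild-type mice 1 to 4 or C151S mouse 5 (adjusted p, 0.0702 to 0.085), *Mgst1* without the same mice or C151S mouse 4 (0.0586 to 0.0815), and *Gsta2* without C151S mouse 5 (0.0557). With the high-*Arntl* libraries alone, which leave 2 treated C151S mice, *Gsta2* and *Mgst1* were lost, at log2 fold changes of -3.37 and -0.74 that were close to those in all mice, and *Gstt1* was gained (-0.77; adjusted p = 0.016). *Gstt2*, not called, turned from 0.26 to -0.29. One hepatocyte marker, *Tat*, was called higher and *Marco* lower, and their part was not tested. Between treated C151S and Nrf2-knockout mice none of the 9 members tested was called, beside 0.162% of 14186 genes, and the ranges of all members overlapped, beside 1.79% of all genes without overlap. Of these, 4 had an unadjusted p under 0.05, and DESeq2 called 2, *Gsta3* (log2 fold change, 1.26; adjusted p = 0.0275) and *Gstp2* (1.65; adjusted p = 0.0282), both higher in C151S mice.

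**Figure D4:**
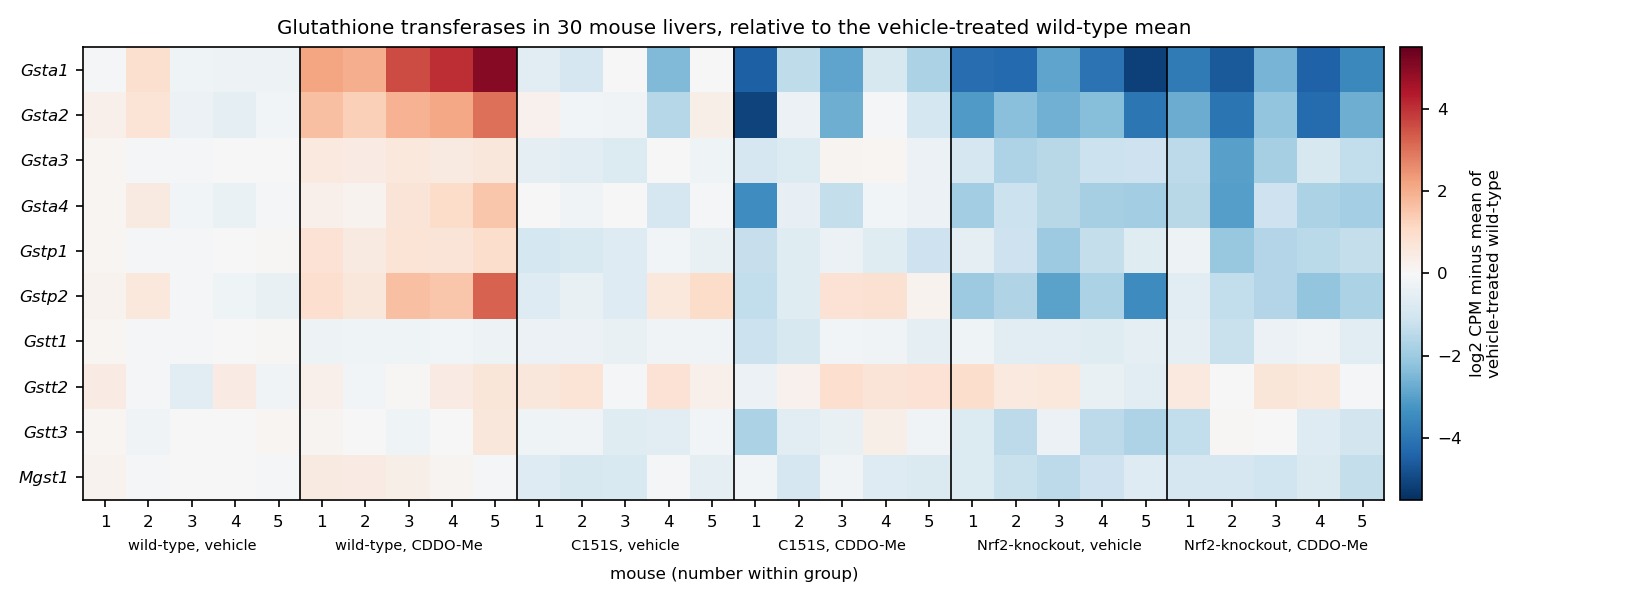
Log2 CPM of each gene in each of the 30 livers, minus the gene's mean in the 5 vehicle-treated wild-type mice (color scale, -5.5 to 5.5; columns, mice by group; prior count, 2). The rows for *Gsta1* and *Gsta2* are red in treated wild-type mice and blue in Nrf2-knockout mice, treated C151S mouse 1 stands out in blue for *Gsta1*, *Gsta2*, and *Gsta4*, and the row for *Gstt2* is pale.

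Within groups the same mice tended to lead several members. Treated wild-type mouse 5 was the highest of its group for 8 of 10 members and mouse 2 the lowest for 7. Vehicle-treated wild-type mouse 2 was the highest for *Gsta1*, *Gsta2*, *Gsta4*, and *Gstp2*, while mouse 1 was the highest for *Gsta3*, *Gstp1*, *Gstt1*, *Gstt3*, and *Mgst1*. In vehicle-treated C151S mice, mouse 4 was the highest for 5 members and at the same time the lowest for *Gsta1*, *Gsta2*, and *Gsta4*. *Gsta1*, *Gsta2*, and *Gsta4* had their highest value in the same mouse in 4 of the 6 groups. *Gm3776*, which shares 83.0% of its 50-base stretches with *Gsta1*, had 4.46, 3.84, 7.66, 9.47, and 29.5 CPM in treated wild-type mice, with mouse 5 again at the top.

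Per kilobase of exon, *Mgst1* had the highest level in vehicle-treated wild-type livers, at 1477 ± 116 CPM per kb (SD, n = 5). It was followed by *Gstp1* (704 ± 38.2), *Gsta3* (429 ± 21.5), *Gstt1* (144 ± 8.55), and *Gsta4* (53.2 ± 12.8), whose ranges were all separate from the next. *Gsta2* (25.2 ± 9.50) and *Gstt2* (15.3 ± 4.68) overlapped, *Gstt3* stood at 8.86 ± 0.72, and *Gsta1* (2.22 ± 0.95) and *Gstp2* (1.94 ± 0.58) overlapped at the bottom, with the limits of counting named above for these copies. In treated wild-type mice the first 4 kept their order, *Gsta2* (104 ± 52.7) came before *Gsta4* (92.7 ± 37.1), and *Gsta1* (29.9 ± 24.9) came before *Gstt2* (17.9 ± 3.96). The ranges of both of these pairs overlapped. With the length of the longest transcript in place of all exons, *Gstt2* (33.0) came just before *Gsta1* (32.6) in treated mice, and *Gstp2* (2.71) before *Gsta1* (2.42) in vehicle-treated mice, again with overlap.

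Related genes gave a setting for these values. Of the mu class, the other large class in mouse liver, 4 of 7 were called higher in wild-type mice after the drug, led by *Gstm4* (log2 fold change, 1.62 ± 0.09; adjusted p = 2.08e-06), *Gstm1* (2.42 ± 0.16; 5.08e-06), and *Gstm3* (3.16 ± 0.34; 0.00023). The response of 4 of the 7 differed from that of C151S mice and that of 4 from Nrf2-knockout mice, where 1 and 0 of the 10 members did. Of all genes, 0.48% and 0.266% did so, and 1.66% were called higher in wild-type mice after the drug. *Gstm1* went from 2007 ± 443 to 10770 ± 1682 CPM in wild-type mice, while it was at 1342 ± 168 and 1333 ± 499 CPM in C151S mice. Of 10 tested genes in the list of other transferases, 1 was called higher in wild-type mice, the microsomal *Mgst3* (1.14 ± 0.13; adjusted p = 0.000266), which also differed in response from C151S mice (1.19 ± 0.24; adjusted p = 0.0132). The drug comparison in C151S and in Nrf2-knockout mice called no gene of these lists.

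Of the genes that make and recycle glutathione, 4 of 12 tested were called higher in wild-type mice, beside 1.66% of all genes. Among them were both subunits of glutamate-cysteine ligase, the rate-limiting enzyme of its synthesis, *Gclm* (log2 fold change, 0.74 ± 0.08; adjusted p = 0.000157) and *Gclc* (1.37 ± 0.17; 0.000586), and glutathione reductase, *Gsr* (0.85 ± 0.11; 0.000697). Of the mercapturate and export genes, 3 of 14 were called higher, all of them membrane transporters, *Abcc3* (0.98 ± 0.13; 0.000935), *Abcc4* (1.94 ± 0.27; 0.00143), and *Abcc2* (0.73 ± 0.12; 0.00366). No gene of either list was called lower there, and none was called after the drug in C151S or Nrf2-knockout mice. Under vehicle, Nrf2-knockout mice had 5 of 7 mu class genes called lower, 3 of 13 glutathione genes lower (*Gsr*, *Ggt6*, and *Gclc*) and 1 higher (*Ggt7*), and 4 of 14 mercapturate and export genes lower, led by *Abcc3* (-2.13 ± 0.22; 0.000287), *Nat8* (-2.81 ± 0.36; 0.000834), and *Abcg2* (-0.90 ± 0.14; 0.00254). None of the other transferases was called in that comparison, in which 4.13% of all genes were called lower and 10.4% in either direction.

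Of all 15000 other genes kept in the fit of 30 libraries, those with group means most like a member were sought by the root mean square difference of the 6 centered means of log2 CPM. *Gsta3* was nearest to *Ugt2b36*, a glucuronosyltransferase (0.11 on the log2 scale), and *Smim22* (0.13), *Gstp2* to *Abcc3* (0.32) and *Nr1i3* (0.33), and *Gsta2* to *Mapk15* (0.46) and *Gstm3* (0.47). *Gsta1* was nearest to *Gm3776* (0.63), with which it shares sequence, and then to *Gm18635* (0.73). For *Gstp1* the nearest were *Gm26967* (0.13) and *Pdgfc* (0.14), for *Gsta4* *Gm47882* (0.22) and *Btbd19* (0.24), and for *Gstt3* *Gm31036* (0.093) and *Rec114* (0.098). These are 6 means from the same libraries and are given as a description.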

How the data were processed

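RNA-seq counts of 30 livers in 6 groups of 5 were analyzed. Per the labels and the study's methods, libraries were stranded, reads were aligned to mm10 with STAR 2.7.7, and the authors deposited raw gene counts of the second strand with GENCODE M23. Only reads with a single position are counted. The 4 summary lines of each file were left out, and symbols came from GENCODE M21 (55154 of 55335 genes). Groups came from the labels. After filterByExpr and TMM scaling, the 2 groups compared were fitted in edgeR 4.0.16 (R 4.3.3; legacy quasi-likelihood F-test), with Benjamini-Hochberg adjustment over all genes; differences of responses used all 30 libraries. SE is the log2 fold change over the square root of F. CPM is normalized, and log2 CPM has a prior count of 2. Isolation dates, used by the study as a covariate, were not used here. With 3 counts or fewer a gene was at the floor, which covers counting error only. All members are named. Of each gene list, up to 3 called genes with the lowest p per direction and comparison are named. The 10 members and the lists were chosen with earlier results of these data known. Alternatives were DESeq2 1.42.0, other scaling, filters, and fits, 1 surrogate variable (sva 3.50.0), the *Arntl* set, summed pairs, another transcript length, and each mouse left out. The scripts were tested on simulated data. The genes most like *Mgst1* are not reported here.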

Additional observations from a re-analysis of the deposited data

Results flagged for a closer look

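The response of *Gsta1* to CDDO-Me differed between wild-type and C151S mice by 5.10 on the log2 scale, in a contrast over all 30 libraries. The counts per library behind it were 43 to 109 in vehicle-treated and 234 to 2159 in CDDO-Me-treated wild-type mice. In C151S mice they were 10 to 77 with vehicle and 1 to 37 with CDDO-Me.

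In 4 of 60 sets of 5 values (10 genes in 6 groups) the highest mouse stood apart from the others by Dixon's criterion, where chance alone flags about 1 in 20. *Gsta1* had 3.74 CPM in vehicle-treated wild-type mouse 2, with the other mice at 1.63 to 1.89 CPM. *Gstp2* had 20.2 CPM in CDDO-Me-treated wild-type mouse 5, with the next at 6.74 CPM. *Gstp1* had 908 CPM in CDDO-Me-treated Nrf2-knockout mouse 1, with the next at 436 CPM. *Gstt1* had 185 CPM in vehicle-treated Nrf2-knockout mouse 1, with the next at 151.1 CPM.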

How the results depend on the processing

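The number of members called moved with the fit. In 1 fit of all 30 libraries it was 2 in place of 5 for the drug in wild-type mice, 1 in place of 2 for vehicle-treated C151S against wild-type, and 1 in place of 0 for CDDO-Me-treated C151S against Nrf2-knockout mice. For vehicle-treated C151S against Nrf2-knockout mice (3 called) it was 5 with DESeq2, with no filter, and with 1 surrogate variable, and 1 with high-*Arntl* libraries alone. For CDDO-Me-treated C151S mice it was 8 in place of 5 against wild-type with 1 surrogate variable, and against Nrf2-knockout mice 1 with the surrogate variable and 2 with DESeq2 in place of 0. For the difference of responses between wild-type and C151S mice (1 called) it was 2 with DESeq2 or no filter, and 0 with at least 10 counts in every library, where *Gsta1* was not among the genes tested. The cause was not tested for the other changes. The log2 fold change of *Gstp2* in vehicle-treated C151S against wild-type mice reversed to -0.58 with *Gstp1* counts added to it. Almost all of the summed counts are from *Gstp1*, which alone gave -0.58, so the sum does not show the change of *Gstp2*.

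Without 1 mouse at a time, members called ranged from 4 to 6 for the drug in wild-type mice, from 0 to 3 for vehicle-treated C151S against wild-type, from 8 to 9 for vehicle-treated Nrf2-knockout against wild-type, from 2 to 3 for vehicle-treated C151S against Nrf2-knockout, from 2 to 6 for CDDO-Me-treated C151S against wild-type, and from 1 to 2 for the difference between wild-type and C151S mice. It was 7 throughout for CDDO-Me-treated Nrf2-knockout against wild-type and 0 throughout for the other 5 comparisons.

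Mice of different groups share only a replicate number. In none of the 9 comparisons of groups were the deviations of all 5 same-numbered pairs correlated above 0.1, and in none did every mouse correlate best with its own number. The mean over same-numbered pairs was highest for the drug in Nrf2-knockout mice, at 0.177 against -0.044 for other pairs. There 3 of 5 mice correlated best with their own number. The mean was lowest for vehicle-treated C151S against Nrf2-knockout mice, at -0.189 against 0.048. With the replicate block, 4 members in place of 5 were called for the drug in wild-type mice (*Gstp2* lost, adjusted p = 0.113), and 0 in place of 3 for vehicle-treated C151S against Nrf2-knockout mice, at log2 fold changes of 4.05 for *Gsta1*, 2.61 for *Gsta2*, and 1.43 for *Gsta4*, close to those without the block. Low counts limit *Gsta1* in mutant mice.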
